A study of Mus musculus with 32 samples.

Results

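At E19.5, late in fetal life, the mouse thymus held 2 sorted populations of the DN1 class with abundant gamma-delta T-cell receptor transcripts, and they are set against each other here. One gate was low for both reporters, written BCL11blowID2low, and the other was positive for BCL11b and negative for ID2, written BCL11b+ID2-. The members are their 3 libraries each, matched by the gate name in the column header, which makes 6 of the 32 libraries of the series and 6 of the 18 at E19.5. The genes compared are the 13840 of 26244 with a normalised count of 10 or more in at least 3 libraries of that stage. All 6 libraries are bulk RNA-seq of flow-sorted cells from the embryonic thymus of 5x polychromILC mice, a reporter strain for which the sources used here give no alleles, and no treatment is named. Every population of the stage carries that strain, so no library of a mouse without the reporters entered. Whether the libraries of a gate came from separate animals is not stated in the labels, so p-values cover the spread between libraries and no more, and that spread may be technical.

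DN1 names the earliest of the thymocyte stages without CD4 and CD8. BCL11b is the transcription factor that locks thymocytes into the T-cell lineage, and ID2 binds and silences E proteins, the helix-loop-helix factors that drive T-cell receptor gene rearrangement. Gamma-delta T cells leave the fetal thymus in waves, which differ in the receptor V segments they favour. Several waves are programmed there to make interleukin 17 (IL-17) or interferon gamma before they ever meet antigen. The receptor is built from Tcrg and Trd segments, and a V segment alone does not fix the wave of a cell.

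The sorting genes were read first and went with the labels. Id2 stood at 183, 165 and 159 normalised counts in replicates 1, 2 and 4 of BCL11blowID2low and at 1.74, 32.1 and 24.9 in those of BCL11b+ID2-, the order used for all values. Bcl11b stood at 476, 491 and 376 against 2076, 1476 and 1469. Neither gene overlapped between the gates. Id2 was 8.63-fold higher in the low gate (log2 difference 3.67 ± 0.73 SE, adjusted p = 0.00314) and Bcl11b 3.74-fold lower (log2 difference -1.89 ± 0.50 SE, adjusted p = 0.0232). Bcl11b lost its call without replicate 1 of BCL11b+ID2- (adjusted p = 0.104) or without replicate 2 or 4 of BCL11blowID2low (0.0506 and 0.0687). With library weights Bcl11b was not called either, and with only the 6 libraries fitted Id2 was not called. Since both genes chose the cells, these differences are a check and not a result. For comparison, Id2 stood at 1119 ± 138 (mean ± SD, n = 3, as for all E19.5 populations) in the BCL11b+ID2+ gate and Bcl11b at 16.3 ± 13.0 in BCL11b-ID2-.

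The DN1 label itself was only partly borne out by transcripts. Kit, the stem cell factor receptor of the earliest thymic progenitors, stood at 51.8 ± 13.2 in the low gate and 173 ± 40.8 in the positive one, where BCL11b-ID2- held 1057 ± 183 and DN2 held 695 ± 99.7. Between the 2 gates Kit fell 3.35-fold in BCL11blowID2low (adjusted p = 0.000567, not called at 0.0734 with only the 6 libraries fitted). Il2ra, which encodes CD25 and marks DN2, was low in both at 276 ± 132 and 87.1 ± 29.2 against 7825 ± 837 in DN2. Cd3e, a chain of the surface T-cell receptor complex, reached 5744 ± 651 and 4395 ± 472, and Trdc, the delta constant gene, 2509.8 ± 512 and 2971 ± 339, against 54.4 ± 10.02 for Trdc in BCL11b-ID2-. Both gates thus carried defining transcripts of gamma-delta T cells and less Kit than BCL11b-ID2- or DN2.

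Each of the 6 libraries held 2599470 to 7060056 reads, recovered from the deposited values, and 14387 to 16709 genes with a read. Mitochondrial genes took 29.87 to 46.55% of the reads in BCL11blowID2low and 43.26 to 54.91% in BCL11b+ID2-. Xist, read from the inactive X chromosome, stood at 4460.1, 1460.4 and 2546 against 12859, 1232 and 1726, so replicate 1 of BCL11b+ID2- stands apart in Xist. The Y-linked gene Kdm5d had reads in all 6 libraries. Markers of macrophages moved with the comparison. The summed level of the 16 macrophage, monocyte and granulocyte markers in the table was 489.7 to 678 in BCL11blowID2low and 39.9 to 276 in BCL11b+ID2-. Of 13 tested, 5 were called higher (3.06% over all tested genes), namely Csf1r, Mrc1, Cd68, C1qa and C1qc. Csf1r, the receptor that macrophages need to survive, had 41.5, 44.7 and 95.2 against 0, 3.21 and 0, while the granulocyte genes Elane and S100a8 and the monocyte gene Cd14 had no reads in any low library. C1qa and C1qc lost their calls with any single library left out except replicate 4 of BCL11b+ID2- (adjusted p 0.0656 to 0.166 and 0.0536 to 0.187), and Cd68 lost its call without replicate 1 of BCL11b+ID2- or replicate 4 of BCL11blowID2low (0.0815 and 0.0518). The part of such cells in the results that follow was not tested. In bulk samples, fewer cells of a type and less RNA per cell cannot be told apart.

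The comparison called 957 of 13840 genes (6.91%) at an adjusted p under 0.05 in limma, with 424 higher (3.06%) and 533 lower (3.85%) in BCL11blowID2low. The 3 libraries of one gate lay wholly above those of the other for 2927 genes (21.1%), upward in 1318 (9.52%) and downward in 1609 (11.6%), and 927 of the called genes were among them. Among called genes, 127 were more than 8-fold higher and 222 more than 8-fold lower on the log2 scale of normalised count plus 1, and the median difference of all genes was -0.06. Without replicate 1 of BCL11b+ID2- the fit called 494 genes, 223 higher and 271 lower, and without replicate 1 of both gates it called 491. A fit of the 6 libraries alone, with the spread taken from them only, called 298, 117 higher and 181 lower.

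**Figure D1:**
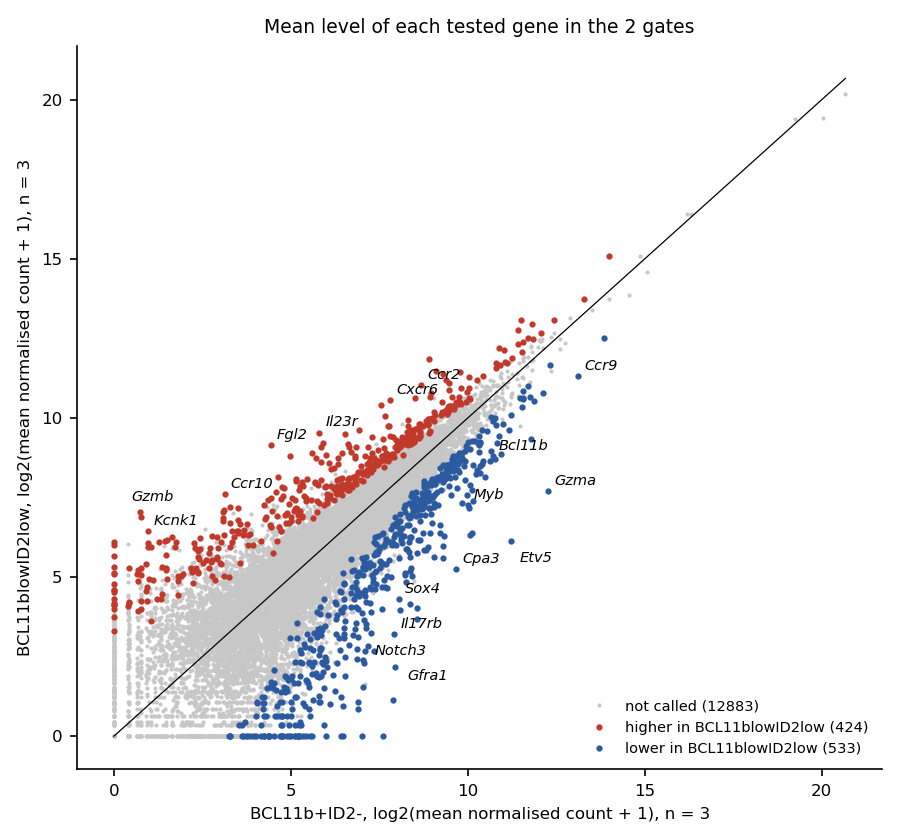
Each point is 1 of the 13840 tested genes, with its mean level over the 3 BCL11b+ID2- libraries on the x axis and over the 3 BCL11blowID2low libraries on the y axis, both as log2 of the mean normalised count plus 1. Red points were called higher (424) and blue points lower (533) in BCL11blowID2low, the line marks equal levels, and Gzma, Etv5 and Gfra1 lie far below it while Gzmb and Fgl2 lie far above it.

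Both gates carried gamma-delta receptor transcripts, but of different V segments. Tcrg-V6 and Trdv4 rose in BCL11blowID2low, and Tcrg-V4 and Trdv5 fell. The 3′ ends of the 4 V exons that the result turns on are shown because these stretches tell the segments apart, each as the last 120 bases of the exon, 5′ to 3′ on the coding strand, with capitals from the conserved cysteine codon at which the receptor's junction begins to the end of the exon (GRCm38, GENCODE annotation). They lie at chr13:19190810-19190929 on the plus strand for Tcrg-V6, chr13:19185387-19185506 on the plus strand for Tcrg-V4, chr14:54075396-54075515 on the plus strand for Trdv4 and chr14:54148662-54148781 on the minus strand for Trdv5.
Tcrg-V6: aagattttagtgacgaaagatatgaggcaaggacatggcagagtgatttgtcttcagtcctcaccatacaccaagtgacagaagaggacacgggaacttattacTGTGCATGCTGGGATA
Tcrg-V4: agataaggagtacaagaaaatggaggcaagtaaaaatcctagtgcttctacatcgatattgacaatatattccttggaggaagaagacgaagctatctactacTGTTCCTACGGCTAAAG
Trdv4: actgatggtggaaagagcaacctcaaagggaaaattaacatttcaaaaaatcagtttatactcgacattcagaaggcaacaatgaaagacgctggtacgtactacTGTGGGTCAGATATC
Trdv5: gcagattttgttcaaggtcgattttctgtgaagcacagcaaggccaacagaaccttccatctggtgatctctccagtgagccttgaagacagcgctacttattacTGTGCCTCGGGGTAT
Aligned over the whole exon, Tcrg-V6 and Tcrg-V4 were identical in 56.2% of columns and Trdv4 and Trdv5 in 52.7%, so reads of these pairs differ at many bases.

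Tcrg-V6, the gamma segment of the fetal wave that settles in dermis, lung and uterus as IL-17 producers, stood at 315, 423 and 425 normalised counts in BCL11blowID2low and at 50.3, 111 and 36.9 in BCL11b+ID2-. Trdv4, which encodes the delta chain that pairs with it, stood at 442, 684 and 608 against 41.6, 176 and 74.7. All 3 low libraries lay above all 3 positive ones for both segments, and both rose, 5.85-fold (log2 difference 2.68 ± 0.80 SE, adjusted p = 0.0458) and 5.94-fold (log2 difference 2.78 ± 0.63 SE, adjusted p = 0.00783). Tcrg-V4, the gamma segment of another IL-17 wave, went the other way, at 71.4, 31.3 and 67.8 against 531, 428 and 335, and fell 7.59-fold (log2 difference -2.97 ± 0.76 SE, adjusted p = 0.019). Trdv5, a further delta V segment, stood at 4.98, 1.12 and 5.65 against 159.7, 137 and 102. It was nearly unread in every low library and 34.0-fold lower (log2 difference -4.91 ± 0.90 SE, adjusted p = 0.00168). Trdv2-2, at 23.2, 4.47 and 7.26 against 43.4, 104 and 51.7, did not overlap and missed the threshold (adjusted p = 0.0782).

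Of these 4 calls, 3 were lost when single libraries were left out. Tcrg-V6 lost its call with any single library left out except replicate 2 of BCL11b+ID2- (adjusted p 0.0717 to 0.136). Tcrg-V4 lost it without replicate 1 or 2 of BCL11b+ID2- or replicate 2 of BCL11blowID2low (0.081, 0.0521 and 0.0804), and Trdv4 without replicate 1 of BCL11b+ID2- (0.0565). Trdv5 kept its call in all 17 alternatives. With library weights Tcrg-V6 and Tcrg-V4 were not called. Over the 14 segments tested, 1 was called higher with a pseudocount of 0.5 and 1 with no filter on low values. Without replicate 1 of both gates, 0 were called higher and 1 lower.

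The same reads can be given as shares, over 157 to 797 V-segment reads per library and locus and with no correction for exon length. Tcrg-V6 took 47.0, 71.7 and 66.0% of the reads over 6 gamma V segments in BCL11blowID2low and 6.13, 15.2 and 6.56% in BCL11b+ID2-. Tcrg-V4 took 10.6, 5.31 and 10.5% against 64.7, 58.4 and 59.5%. The segment with most gamma reads was thus Tcrg-V6 in each low library and Tcrg-V4 in each positive one. Of the reads over 4 delta V segments, Trdv4 took 94.0, 99.2 and 97.3% in BCL11blowID2low against 15.3, 41.4 and 31.2%, and Trdv5 took 1.06, 0.162 and 0.904% against 58.6, 32.3 and 42.7%. None of these 4 shares overlapped between the gates. Shares within a locus depend on one another, and the 4 segments were already called on the same reads, so these are not separate results. The delta denominator leaves out the V segments that delta and alpha chains both use. With those in the table added, 10 segments in all, Trdv4 took 92.7, 97.8 and 95.9% against 11.3, 34.2 and 27.2%, and Trdv5 took 1.05, 0.1597 and 0.892% against 43.4, 26.7 and 37.2%. With 3 libraries a side an exact two-sided permutation test cannot fall below 0.1, so the shares carry no test. The joining segments, chosen after their values were seen and with 45 to 78 reads per library, differed in balance too, with Trdj2 at 67.1 ± 6.19% of Trdj1 plus Trdj2 reads in BCL11blowID2low and 20.7 ± 10.2% in BCL11b+ID2-, while neither segment was called.

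Of the constant genes and the other V segments on the list, none was called. Trdc stood at 1959, 2971 and 2599.7 against 3011, 3288 and 2613 and Tcrg-C1 at 2008, 2164 and 2087 against 1748, 2049 and 1799, and neither was called (adjusted p = 0.633 and 0.721). Tcrg-C4 and Tcrg-C2 were not called either, at log2 differences of -0.04 ± 0.54 and -0.66 ± 0.34 (SE). The gamma constant genes resemble each other closely, and the sources used here do not say how the authors' counting treated reads shared between them, so the split is uncertain. Tcrg-V1, the segment of a gamma-delta population with a wide range of fates, stood at 224, 85.0 and 79.9 against 98.9, 73.9 and 84.9, with overlap. Tcrg-V5, from the epidermal wave of earlier fetal life, stood at 21.6, 17.9 and 17.8 against 17.4, 21.4 and 20.3 and did not separate the gates. Of 14 segments tested, 2 rose and 2 fell, with a median log2 difference of -0.46 beside -0.06 over all genes. Over all tested genes, 3.06% rose and 3.85% fell.

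Among the shared alpha and delta V segments, 2 were called, both outside the list and chosen after their values were seen. Trav13-4-dv7 had 0, 0 and 0.807 against 27.8, 53.6 and 20.3 and was 126-fold (95% counting interval 22.6 to 4973) lower (adjusted p = 0.00113). Trav15-2-dv6-2 had no reads in any low library and 17.4, 29.995 and 11.1 in BCL11b+ID2-, at least 16.3-fold lower against a floor of 3 reads over the gate (adjusted p = 0.00287). Both thus lay almost wholly in the positive gate, on 88 and 50 reads there. edgeR called neither (adjusted p = 0.057 and 0.0708), and these segments have close relatives in the locus, so their split is uncertain.

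**Figure D2:**
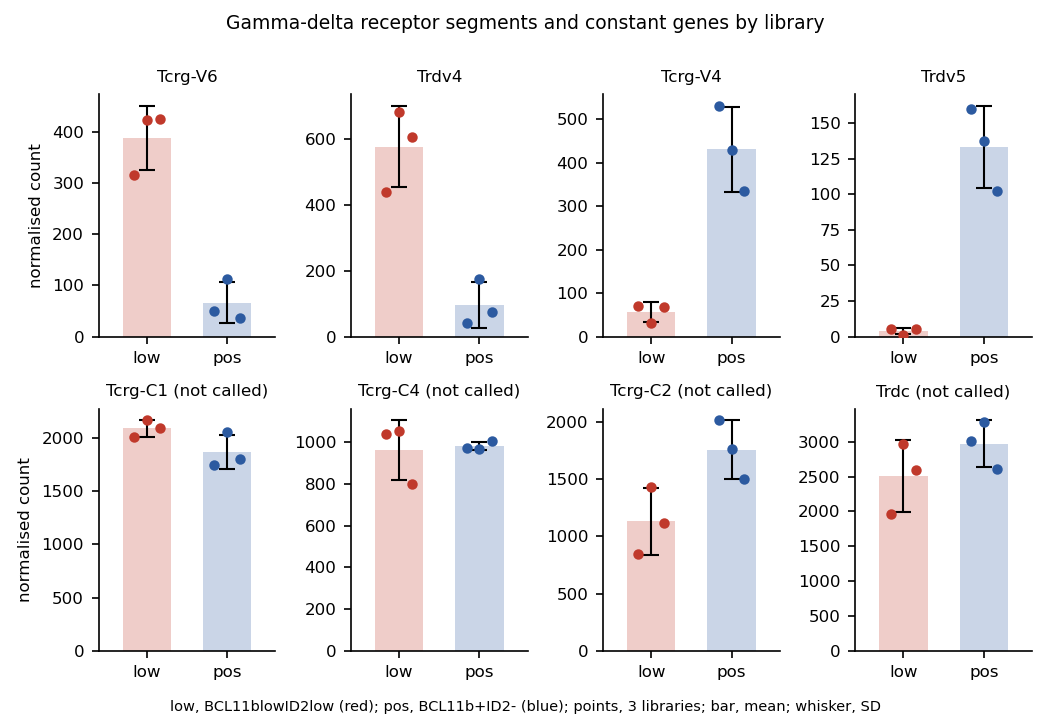
Normalised counts (y axis, starting at 0) of 4 V segments in the top row and 4 constant genes in the bottom row, for the 3 BCL11blowID2low libraries (red, "low") and the 3 BCL11b+ID2- libraries (blue, "pos"), with the bar at the mean and the whisker at 1 SD. Tcrg-V6 and Trdv4 lie higher in every low library and Tcrg-V4 and Trdv5 lower, while the points of Tcrg-C1, Tcrg-C4 and Trdc overlap.

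Genes of the IL-17 programme of gamma-delta cells split, with several receptors higher in the low gate and factors such as Maf not called. Of 21 listed genes, 8 rose and 1 fell, where 3.06% and 3.85% of all tested genes did. This list and the others were chosen with earlier results of these data known, so the shares beside them are no test of enrichment. The median log2 difference was 1.28. Il23r, the receptor chain for the cytokine that expands IL-17 producers, stood at 986, 590.4 and 656 against 74.6, 78.2 and 12.0. Every low library lay well above every positive one, and Il23r rose 13.5-fold (log2 difference 4.09 ± 0.88 SE, adjusted p = 0.00553). Elsewhere at E19.5 it stood at 92.1 ± 19.0 in BCL11b+ID2+ and 1.24 ± 0.973 in BCL11b-ID2+. Ccr2, a chemokine receptor for entry into inflamed tissue, stood at 2324, 1896 and 2029.9 against 408, 500.3 and 311 and rose 5.13-fold (log2 difference 2.38 ± 0.29 SE, adjusted p = 2.59e-05). Ccr6, a receptor shared by most IL-17 producing lymphocytes, had 133, 49.2 and 118 against 6.94, 9.64 and 15.7 and rose 9.29-fold (adjusted p = 0.0216). Ccr6 lost its call without replicate 1 or 2 of BCL11b+ID2- or replicate 1 or 4 of BCL11blowID2low (adjusted p 0.0518 to 0.0845).

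Of the remaining risers of the list, 2 had almost no reads in BCL11b+ID2-. Kcnk1, a potassium channel, had 103, 64.9 and 88.8 against 1.74, 1.07 and 0 and was 91.4-fold (95% counting interval 25.3 to 755) higher, and Ltb4r1, the leukotriene B4 receptor, had 46.5, 82.7 and 68.6 against 1.74, 1.07 and 0 and was 70.5-fold (95% counting interval 19.51 to 582) higher. All 3 low libraries were high in both genes. Serpinb1a, an inhibitor of neutrophil proteases that restrains IL-17 producing gamma-delta cells, stood at 181, 122 and 216 against 52.1, 17.1 and 6.46 and rose 6.86-fold (adjusted p = 0.000477). Zbtb16, the PLZF factor of innate-like lymphocytes, rose 4.28-fold from 157 ± 49.0 to 673 ± 261 (adjusted p = 0.0222). Its call was lost without replicate 1 or 4 of BCL11b+ID2- or replicate 2 of BCL11blowID2low (0.0789, 0.0708 and 0.101).

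The pair of related scavenger receptor genes that mark IL-17 programmed gamma-delta cells moved in opposite directions. Cd163l1, also known as Scart1, stood at 2027, 2144 and 2387 against 843, 541 and 754 and rose 3.07-fold (adjusted p = 0.0333). 5830411N06Rik, also known as Scart2, stood at 19.9, 152 and 73.4 against 1248, 929 and 1155 and fell 13.6-fold (log2 difference -4.15 ± 0.82 SE, adjusted p = 0.00295). Neither gene overlapped between the gates. The fall kept its call with each library left out in turn, whereas the rise of Cd163l1 lost its call in all 6 such fits (adjusted p 0.0605 to 0.108).

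Several other members of the list overlapped between the gates. Maf, a transcription factor of the programme, stood at 1844, 1724 and 1161 against 2320.3, 2131 and 1607 (log2 difference -0.37 ± 0.32 SE). Blk, a Src-family kinase, and Rora, a nuclear receptor, overlapped as well, with adjusted p = 0.975 and 0.458. Il17a, the effector cytokine, was read at 28.2, 57.0 and 79.9 against 33.0, 32.1 and 93.2 and did not differ beyond its spread (adjusted p = 0.968). Il17f had 1.66, 20.1 and 18.6 against 48.6, 67.5 and 165, lower in every low library, and missed the threshold (log2 difference -3.001 ± 0.96 SE, adjusted p = 0.0599). Il1r1, the IL-1 receptor that co-stimulates IL-17 release, had 1119, 872 and 686 against 434, 213 and 194 without overlap and was not called (adjusted p = 0.153).

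**Figure D3:**
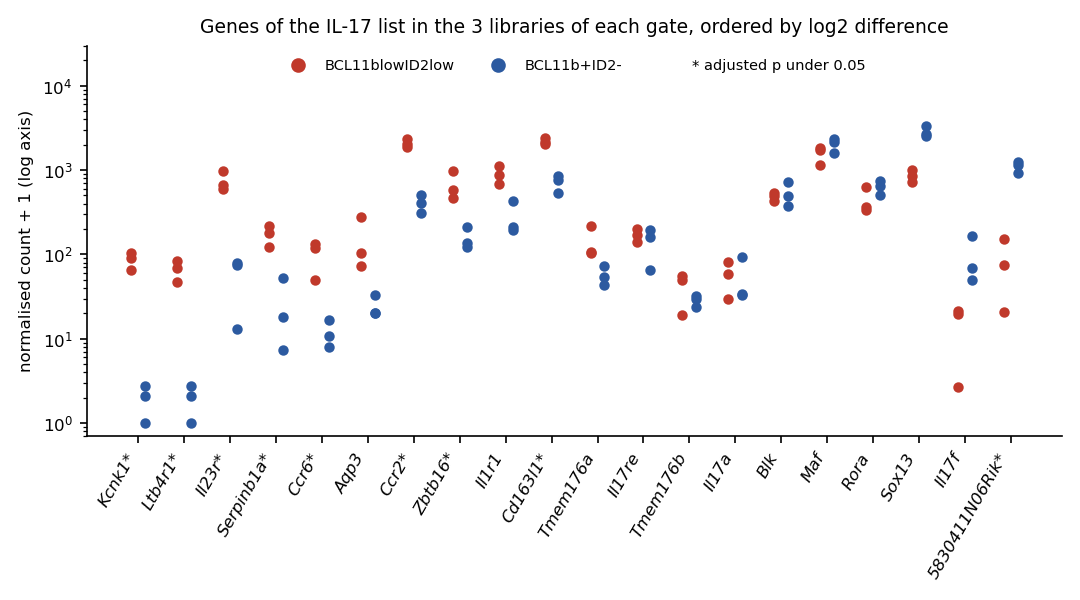
Normalised counts plus 1 (log axis) of 20 genes of the IL-17 list in the 3 BCL11blowID2low libraries (red) and the 3 BCL11b+ID2- libraries (blue), ordered by log2 difference, with an asterisk at an adjusted p under 0.05. The 8 called risers stand among the first 10 genes, the points of Maf, Blk and Il17a overlap, and 5830411N06Rik is the called gene that fell.

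Regulators of T-lineage and gamma-delta fate were lower in BCL11blowID2low in all but 1 of the called cases, with 7 of 20 called lower and 1 higher, at a median log2 difference of -0.71. Of all tested genes, 3.85% were called lower and 3.06% higher. Etv5, an Ets-family factor that favours IL-17 programmed gamma-delta cells, was among the genes ranked by size of difference. It stood at 88.0, 79.4 and 39.5 against 3311, 2418 and 1468 and fell 34.8-fold (log2 difference -5.10 ± 0.97 SE, adjusted p = 0.00209). Other populations of the stage held less, with 82.5 ± 49.3 in BCL11b-ID2-, 28.6 ± 31.6 in DN2 and 25.8 ± 37.9 in BCL11b+ID2+. Sox4, a high-mobility-group factor needed for IL-17 programmed gamma-delta cells, had 31.5, 13.4 and 11.3 against 321, 267 and 208 and fell 14.1-fold (log2 difference -3.87 ± 0.59 SE, adjusted p = 0.000278). Sox13, its relative and an early mark of the gamma-delta lineage, had 993, 849 and 729.6 against 3323, 2696 and 2559. Every low library lay below every positive one, but the difference missed the threshold (log2 difference -1.74 ± 0.69 SE, adjusted p = 0.134).

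Myb, a factor of proliferating progenitors, stood at 103, 189 and 165 against 1017, 994 and 1053 and fell 6.71-fold (log2 difference -2.78 ± 0.32 SE, adjusted p = 9.6e-06), while DN2 held 1576 ± 110.2. Gata3 and Tcf7, which establish the early T-cell programme, fell as well. Gata3 stood at 390.1, 347 and 349 against 1343, 1289.8 and 1270.1, 3.59-fold lower (adjusted p = 4.48e-05), and Tcf7 at 1584, 1820.4 and 1023 against 3809, 4188 and 3342, 2.56-fold lower (adjusted p = 0.000354). Neither gene overlapped between the gates. Tcf12, which encodes the E protein HEB, fell 3.26-fold and Ikzf1, which encodes Ikaros, 1.61-fold (adjusted p = 4.82e-05 and 0.0278). Ikzf1 lost its call without replicate 1 or 2 of BCL11b+ID2- or replicate 2 or 4 of BCL11blowID2low (0.0515 to 0.172). The riser was Zbtb7b, which encodes ThPOK, at 129, 177 and 88.8 against 8.68, 1.07 and 12.9, 17.4-fold higher (log2 difference 4.29 ± 0.82 SE, adjusted p = 0.00223). Ets1, Ikzf3 and Ikzf2, an Ets factor and relatives of Ikaros, were not called, with log2 differences of -0.64, 0.50 and -0.45.

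Helix-loop-helix genes, the family on which ID2 acts, had Bhlhe40 called higher and Tcf4, Tcf12 and Hes1 lower of 9 tested, besides Id2, which the gates fixed. The shares over all tested genes were 3.06% higher and 3.85% lower. Tcf4, which encodes the E protein E2-2, stood at 11.6, 11.2 and 21.8 against 199.6, 213 and 155 and fell 12.7-fold (log2 difference -3.63 ± 0.37 SE, adjusted p = 3.37e-06). Bhlhe40, a repressor induced in effector lymphocytes, had 16.6, 93.9 and 69.4 against 0, 10.7 and 0.922 and rose 15.47-fold (log2 difference 4.12 ± 0.71 SE, adjusted p = 0.000838). Tcf3, which encodes E2A, and Id3, the Id protein induced by receptor signals, were not called at 118, 162 and 147 against 271, 240.0 and 208 and 56.4, 83.9 and 138 against 234, 187 and 249.96. Both were lower in every low library, with adjusted p = 0.24 and 0.383. The Notch pathway, which starts T-cell development, had 2 of 9 tested genes higher and 2 lower, 1 of each a receptor. Notch3 stood at 6.64, 2.24 and 4.04 against 149, 110.3 and 129 and fell 30.1-fold (log2 difference -4.70 ± 0.78 SE, adjusted p = 0.000567), and Hes1, a Notch target, had 0, 3.35 and 8.88 against 55.5, 35.4 and 21.2 (adjusted p = 0.00183). Notch2 rose 1.92-fold (adjusted p = 0.02, lost at 0.116 without replicate 1 of BCL11b+ID2- and 0.0574 without replicate 1 of BCL11blowID2low), and Notch1 and Rbpj, a receptor and the DNA-binding partner of Notch, were not called (log2 differences -0.42 and 0.12).

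Since E proteins and nuclear receptors bind short motifs, the bases before the start of 3 called genes were read from RefSeq promoter sequence (GRCm38.p6) and are shown 5′ to 3′ on the gene's strand, 250 bases up to the start, with E-boxes (CAGCTG, or CAGGTG and its complement CACCTG) and nuclear receptor half-sites (AGGTCA and its complement TGACCT) in capitals. Gzma (chr13:113100982-113101231, minus strand) and Etv5 (chr16:22439571-22439820, minus strand, the first of 2 windows of the gene) fell, and Il23r (chr6:67491856-67492105, minus strand) rose.
Gzma: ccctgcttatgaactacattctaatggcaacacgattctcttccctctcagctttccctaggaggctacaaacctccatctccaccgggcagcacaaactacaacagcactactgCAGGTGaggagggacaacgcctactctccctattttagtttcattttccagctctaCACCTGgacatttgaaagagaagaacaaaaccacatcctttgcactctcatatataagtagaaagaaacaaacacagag
Etv5: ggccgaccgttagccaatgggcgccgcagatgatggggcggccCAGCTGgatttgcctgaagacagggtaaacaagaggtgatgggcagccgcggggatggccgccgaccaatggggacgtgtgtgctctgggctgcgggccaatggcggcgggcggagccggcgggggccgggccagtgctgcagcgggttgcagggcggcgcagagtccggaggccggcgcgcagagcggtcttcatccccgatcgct
Il23r: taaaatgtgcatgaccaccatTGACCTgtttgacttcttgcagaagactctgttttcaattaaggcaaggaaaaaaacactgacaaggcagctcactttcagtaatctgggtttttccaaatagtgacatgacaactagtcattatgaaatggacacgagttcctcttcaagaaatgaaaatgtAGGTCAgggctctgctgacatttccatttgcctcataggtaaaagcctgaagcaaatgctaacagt
Of the forms searched, Gzma held 2 E-boxes, 135 and 79 bases before the start, and Etv5 held 1 at 207 bases. Il23r held none of these E-box forms and 2 half-sites, at 229 and 66 bases. Other forms of the E-box were not searched, and the 3 genes were picked by name among called genes. Over all windows of the promoter table, matched by symbol to 9262 tested genes, CAGCTG was found in 11.7% of windows of tested genes, in 13.0% of those called higher and in 16.5% of those called lower. CAGGTG was found in 15.3, 16 and 17.3% of the same sets, and AGGTCA in 10.8, 14.0 and 9.4%. The core of TCF sites, CTTTGA, was found in 10.6, 12.2 and 10.3%, and the Ets core CCGGAA in 22.2, 17.7 and 13.6%. Both strands were searched, and over all 32851 windows of the table the shares were 13.0, 17.2, 14.0, 13.8 and 12.0% in the order given. These are matches to letters, common in any promoter, and carry no test.

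Among cytotoxic and natural killer genes, Gzma and Gzmb moved in opposite directions. Of 23 tested, 5 rose and 2 fell (3.06% and 3.85% over all tested genes), with a median log2 difference of 0.86. Gzma, a serine protease of cytotoxic granules, stood at 186, 191 and 245 against 5371, 4333 and 5200.3 and fell 24.0-fold, with the smallest p-value of the comparison (log2 difference -4.58 ± 0.31 SE, adjusted p = 6.64e-09). Elsewhere at E19.5 it stood at 4394 ± 1391 in BCL11b-ID2+ and 1228 ± 496 in DN2. Gzmb, the granzyme that triggers apoptosis, went the other way with 161, 204 and 29.9 against 0, 1.07 and 0.922, and rose 198-fold (95% counting interval 54.8 to 1634). Its log2 difference was 5.99 ± 0.68 (SE), at an adjusted p of 1.07e-05 in limma. It was scarce in replicate 4 of the low gate and below BCL11b-ID2+, which held 1197 ± 250.36.

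Cd27, a tumour necrosis factor receptor whose absence marks IL-17 committed gamma-delta cells, stood at 393, 173 and 282 against 1696, 1330.5 and 1300.5 and fell 5.09-fold (log2 difference -2.41 ± 0.33 SE, adjusted p = 9.18e-05). Il2rb, the receptor chain for IL-2 and IL-15, stood at 1796, 1660.5 and 1376 against 594, 418 and 462 and rose 3.28-fold (adjusted p = 0.00511). Cd7, a surface protein of T and natural killer cells, had 469.8, 257 and 442 against 64.2, 73.9 and 33.2 and rose 6.82-fold (adjusted p = 0.0101). Klrb1f and Tyrobp, a natural killer receptor and an adaptor for such receptors that macrophages also express, rose 3.97-fold and 3.61-fold. Klrb1f lost its call without any library but replicate 1 of BCL11b+ID2- (0.0518 to 0.157) and Tyrobp, whose libraries overlapped, without replicate 1 or 2 of BCL11b+ID2- or replicate 2 or 4 of BCL11blowID2low (0.0642 to 0.15). Nkg7, a granule protein, Cd160, a receptor, Ctsw, a protease, and Prf1, which encodes perforin, were not called, at log2 differences of -0.89 ± 0.33, 1.43 ± 0.64, 0.86 ± 0.54 and -2.42 ± 1.19 (SE). The defining natural killer and type 1 genes were at or near 0 in both gates. Ifng had no reads in any of the 6 libraries, Ncr1 had none in BCL11blowID2low, Klrb1c had 0, 1.12 and 0 against 1.74, 0 and 0, and Tbx21 had 0, 0 and 2.42 against 0, 0 and 0.

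Genes shared with innate lymphoid precursors had a median log2 difference of 1.15. Of 15, 6 were called higher in the low gate and Tcf7 lower (3.06% and 3.85% over all tested genes). Besides Zbtb16, Zbtb7b, Itgb7 and Cxcr5, these were Il18r1 and Cxcr6. Il18r1, the receptor for IL-18, stood at 813, 1019.8 and 734 against 305, 199 and 136 and rose 4.01-fold (log2 difference 2.06 ± 0.40 SE, adjusted p = 0.00238). Cxcr6, a chemokine receptor of tissue-resident lymphocytes, stood at 1210.1, 1523 and 1771 against 222, 251 and 192 and rose 6.78-fold (log2 difference 2.75 ± 0.41 SE, adjusted p = 0.000229), while BCL11b+ID2+ held 1930.4 ± 519.9. Tox, needed for early innate lymphoid cells, was not called at 1152, 658 and 836 against 1822, 1294 and 1254.

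Genes of type 2 innate lymphoid cells (ILC2) included 2 called higher and 3 lower of 18 tested, 1 of the lower being Bcl11b, which the gates fixed. Over all tested genes, 3.06% were called higher and 3.85% lower. The median of the ILC2 list changed sign between alternatives. Il17rb, the receptor for IL-25, stood at 13.3, 5.59 and 5.65 against 333, 165 and 231 and fell 29.7-fold (log2 difference -4.78 ± 0.69 SE, adjusted p = 0.000152). Cysltr1, a leukotriene receptor, had 21.6, 43.6 and 29.9 against 0, 5.36 and 2.77 and rose 11.7-fold (adjusted p = 0.00173), far below the 1301 ± 235 of BCL11b+ID2+. Il1rl1, the IL-33 receptor that defines ILC2, had 1.66, 1.12 and 2.42 against 0, 0 and 1.84, and Il5 and Areg had no reads in either gate. Ptgdr2, the prostaglandin D2 receptor of ILC2, had 212, 139 and 68.6 against 27.8, 27.9 and 12.0 without overlap and missed the threshold (adjusted p = 0.0652), as did Arg1, which encodes arginase (log2 difference 1.51 ± 0.93 SE). The other called members were Il2ra, 3.17-fold higher, and Gata3 and Bcl11b, lower as given above. Of 12 type 3 ILC genes tested, Il23r, Cxcr5 and Ccr6 rose and Kit fell, while Ltb, a lymphotoxin chain, and Ahr, a ligand-activated factor, were not called (log2 differences 0.29 ± 0.63 and 0.47 ± 0.39 SE).

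Homing receptors changed in 10 of 22, where 6.91% of all tested genes did, 7 higher and 3 lower, at a median log2 difference of 0.46. Ccr9, which guides lymphoid cells to the thymus and the gut, stood at 2511, 2655 and 2435 against 11004, 8331 and 7567 and fell 3.54-fold (log2 difference -1.80 ± 0.40 SE, adjusted p = 0.00624). Cxcr4, which keeps early thymocytes in the cortex, had 154, 116 and 170.3 against 621, 412 and 279 and fell 2.98-fold (adjusted p = 0.00238). Ccr10, a receptor for skin and mucosal chemokines, had 168, 125 and 291 against 3.47, 16.1 and 3.69 and rose 25.1-fold (log2 difference 4.69 ± 0.86 SE, adjusted p = 0.0017). S1pr1, the receptor that lets mature thymocytes leave, stood at 586, 422 and 412 against 74.6, 227 and 168 and rose 3.02-fold (adjusted p = 0.017). Every low library lay above every positive one for Ccr10 and S1pr1 and below for Ccr9 and Cxcr4.

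Itgb7, an integrin chain for gut homing, rose 2.75-fold, Gpr183, an oxysterol receptor, 2.74-fold, Ly6a, which encodes Sca-1, 2.55-fold and Cxcr3 11.5-fold, with adjusted p = 0.017, 0.0238, 0.0472 and 0.043. Cxcr5, a receptor for follicle chemokine listed among precursor genes, had 359, 219 and 193 against 22.6, 65.3 and 15.7 and rose 7.44-fold (adjusted p = 0.0402). These were weaker calls. Leaving out replicate 1 of BCL11b+ID2- ended those of S1pr1 (adjusted p = 0.117), Itgb7 (0.0545), Gpr183 (0.121), Cxcr3 (0.0722) and Cxcr5 (0.125), and leaving out replicate 2 of BCL11b+ID2- ended those of Itgb7 (0.0704), Gpr183 (0.051), Ly6a (0.14) and Cxcr3 (0.0851). Leaving out replicate 4 of that gate ended those of Ly6a (0.112), Cxcr3 (0.0933) and Cxcr5 (0.125). On the other side, calls were lost without replicate 1 of BCL11blowID2low for S1pr1 (0.0606), Gpr183 (0.0717), Ly6a (0.0987) and Cxcr5 (0.108). The same held without replicate 2 for Itgb7 (0.0562), Ly6a (0.0773), Cxcr3 (0.196) and Cxcr5 (0.0844), and without replicate 4 for Gpr183 (0.064), Ly6a (0.0988) and Cxcr5 (0.0631). Itgal, Itgae, Cd44 and Ccr4, 2 integrin chains, an adhesion receptor and a chemokine receptor, were not called, at log2 differences of -0.30 ± 0.15, -0.22 ± 0.43, 0.70 ± 0.22 and 0.71 ± 0.90 (SE). Cd44, also a mark of DN1 cells, lay just outside the threshold (adjusted p = 0.0506).

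Among 21 cytokine receptors, 5 rose and 2 fell (3.06% and 3.85% over all tested genes), and the list median changed sign between alternatives. Il7r, which sustains lymphocytes that live on IL-7, stood at 2364, 1648 and 1257 against 816, 329 and 352 and rose 3.52-fold (log2 difference 1.90 ± 0.33 SE, adjusted p = 0.000841). Il18rap, the second chain of the IL-18 receptor, had 259, 293 and 119 against 12.1, 28.9 and 39.7 and rose 8.31-fold (log2 difference 3.05 ± 0.47 SE, adjusted p = 0.000286). Il2ra rose 3.17-fold, with 340.3, 363 and 124 against 83.3, 59.99 and 118 (adjusted p = 0.00389), and Il2rb is given above. Together with Il18r1, both chains of the IL-18 receptor were higher in every low library. Tgfbr1, a receptor for transforming growth factor beta, fell 2.46-fold and Ifngr1, the interferon gamma receptor, 1.90-fold (adjusted p = 0.00436 and 0.0124). Ifngr1 lost its call without replicate 1 of BCL11b+ID2- or replicate 2 or 4 of BCL11blowID2low (0.0759, 0.0614 and 0.0592). Il2rg, the chain that most of these receptors share, was higher in every low library and not called, at 1016, 1122 and 1146 against 816, 801 and 738 (adjusted p = 0.0879). Tgfbr2, Ifnar1 and Il21r were not called either, at log2 differences of -0.50 ± 0.21, -0.93 ± 0.41 and -1.58 ± 0.52 (SE).

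Alpha-beta receptor and later thymocyte genes were lower where called, 5 of 15 beside 3.85% of all tested genes. Their median log2 difference was -1.15. Trbc1 and Trbc2, the beta constant genes, stood at 684, 986 and 940.3 against 1706, 1574 and 2096 and 1192, 1702 and 1781 against 3034, 2802 and 3269.8, and fell 2.06-fold and 1.95-fold (adjusted p = 0.0017 and 0.000523). The 2 genes are near copies, so their split is uncertain. Satb1, a chromatin organiser of thymocytes, stood at 837, 799.5 and 703 against 3025, 1832 and 2091 and fell 2.97-fold (log2 difference -1.54 ± 0.24 SE, adjusted p = 0.000278). Arpp21, a gene of immature thymocytes, fell 5.91-fold (adjusted p = 0.0069, lost at 0.0524 without replicate 1 of BCL11b+ID2-), and Trbv13-2 5.54-fold (adjusted p = 0.0349, lost without any library but replicate 1 of BCL11blowID2low at 0.0603 to 0.153). Cd8a, the CD8 chain, Themis, a regulator of receptor signals in thymocytes, and Trac, the alpha constant gene, were lower in every low library and not called (adjusted p = 0.114, 0.0636 and 0.543). Rag1, which cuts the receptor loci, overlapped between the gates at 317, 248 and 159 against 198, 196 and 251, and Ptcra, the pre-T-cell receptor chain, was at 0, 0 and 16.1 against 8.68, 0 and 0.922.

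Chains of the receptor complex on the cell surface were not called. Cd3e stood at 6241, 5984 and 5007 against 4472, 4824 and 3889.6 and Cd247, the zeta chain, at 1067, 1182 and 1013 against 831, 1153 and 917, and neither was called (adjusted p = 0.474 and 0.846). Cd3e was higher in every low library, by less than the test could call, while Lcp2 and Prkcq, which encode the adaptor SLP-76 and a protein kinase C, overlapped between the gates. Of 20 complex and signalling genes, 3 fell, Trat1, Ubash3a and Plcg1, beside 3.85% of all tested genes. Ubash3a, a phosphatase that damps receptor signals, had 59.8, 7.83 and 12.9 against 186, 207 and 114 and fell 6.30-fold (log2 difference -3.08 ± 0.56 SE, adjusted p = 0.00145), a call lost with only the 6 libraries fitted (0.0509). Trat1 lost its call without replicate 1 or 2 of BCL11b+ID2- or replicate 2 or 4 of BCL11blowID2low (0.0762 to 0.184), and Plcg1 without any library but replicate 4 of BCL11b+ID2- (0.0604 to 0.23). Of 16 genes induced by receptor signals, Irf4 alone was called, a count close to the 6.91% called over all tested genes. Irf4, a factor whose level follows signal strength, stood at 845, 321 and 252 against 55.5, 64.3 and 24.0 and rose 9.86-fold (log2 difference 3.18 ± 0.79 SE, adjusted p = 0.0165), which was lost without replicate 4 of BCL11b+ID2- (0.0676) or replicate 1 of BCL11blowID2low (0.0764). Nfatc1, Cd69, Egr1 and Cd5 overlapped between the gates, at log2 differences of 0.22 ± 0.26, -0.18 ± 0.76, -0.21 ± 0.50 and 0.08 ± 1.09 (SE).

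Metabolic and housekeeping lists held few called genes outside glycolysis, as lists this short would at the 6.91% called over all tested genes. Of 16 glycolysis genes, Pfkp, Aldoa, Eno1 and Ldha rose, beside 3.06% of all tested genes, at a median log2 difference of 0.63. Ldha, the last enzyme of the pathway, stood at 1856, 2952 and 2199 against 749.7, 1573 and 1350.3 and rose 1.91-fold (adjusted p = 0.0125). Aldoa stood at 1230.0, 1457 and 1564 against 729, 917 and 869 and rose 1.69-fold (adjusted p = 0.0314). All 4 lost their calls without replicate 1 of BCL11b+ID2- (0.207 for Pfkp, 0.128 for Aldoa, 0.134 for Eno1 and 0.0954 for Ldha) and without replicate 2 of BCL11blowID2low (0.12, 0.0869, 0.0669 and 0.0761). Replicate 4 of BCL11blowID2low decided Pfkp, Aldoa and Eno1 too (0.0734, 0.0932 and 0.0712 without it), replicate 4 of BCL11b+ID2- decided Pfkp and Aldoa (0.0993 and 0.0553) and replicate 1 of BCL11blowID2low decided Pfkp (0.0838). No gene among 18 of nuclear oxidative phosphorylation and 24 of ribosomal proteins was called in limma, while 2 and 2 had an unadjusted p under 0.05. edgeR called 0 of either list, and DESeq2 called 0 and 1.

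Of 31 cell cycle genes, Cdkn1b, an inhibitor of cell division, was called, 2.198-fold lower (adjusted p = 0.0349, lost without any BCL11b+ID2- library or replicate 2 of BCL11blowID2low at 0.0604 to 0.187). Mki67, a protein of dividing cells, stood at 4271, 5626 and 4832 against 4502, 3480.5 and 2716 and was not called (adjusted p = 0.119), nor was Top2a, a topoisomerase of dividing cells (log2 difference 0.21 ± 0.17 SE). B2m and H2-D1, components of class I major histocompatibility complexes, rose 1.39-fold and 1.89-fold (adjusted p = 0.0193 and 0.00243). H2-D1 kept its call in all 17 alternatives, and B2m lost it without replicate 1 or 4 of BCL11b+ID2- or replicate 2 of BCL11blowID2low (0.0912, 0.0538 and 0.0872). Of 10 mitochondrially encoded genes, mt-Nd6 fell 1.70-fold (adjusted p = 0.0178), while the summed level of the list overlapped between the gates. The call of mt-Nd6 was lost without replicate 1 or 4 of BCL11b+ID2- or replicate 2 of BCL11blowID2low (0.0885, 0.0807 and 0.0675). Btg2, an early response gene, was the called member of 16 stress and early response genes, at 124, 204 and 312 against 559, 518 and 725, 2.81-fold lower (adjusted p = 0.00558). No gene among 8 of the GIMAP family and 17 of the interferon response was called in limma, edgeR or DESeq2, while 2 and 5 had an unadjusted p under 0.05 in limma. The counts of these short lists stand beside the 6.91% that limma called over all tested genes.

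**Figure D4:**
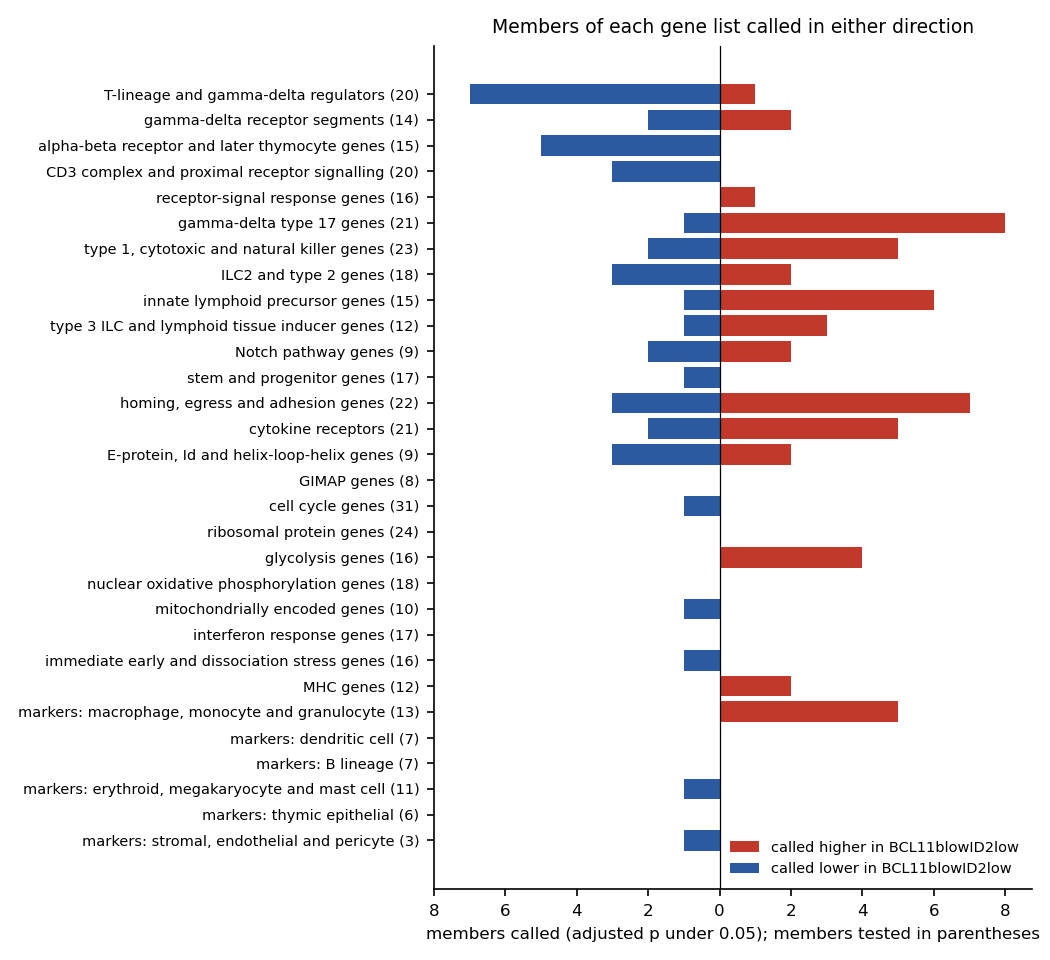
Bars give the number of members of each gene list called higher (red, to the right) or lower (blue, to the left) in BCL11blowID2low, with the number of members tested in parentheses. Type 17, precursor and homing lists reach farthest to the right, with 8, 6 and 7 members, and the regulator list farthest to the left, with 7. Lists differ in length, and the bars are counts and not shares. Of all tested genes, 3.06% were called higher and 3.85% lower.

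The genes ranked by size of difference, 15 per direction, added others to those of the lists. Among the risers, Fgl2, a fibrinogen-like protein of regulatory and myeloid cells, stood at 664, 614 and 416 against 13.9, 26.8 and 21.2 and rose 27.4-fold (log2 difference 4.73 ± 0.36 SE, adjusted p = 2.37e-08). Nt5e, which encodes the adenosine-producing enzyme CD73, had 89.6, 178 and 79.1 against 8.68, 13.9 and 0 and rose 15.3-fold (adjusted p = 0.00555). Jaml, a junctional adhesion molecule that co-stimulates gamma-delta cells, had 179, 396 and 273 against 1.74, 27.9 and 41.5 and rose 11.9-fold (adjusted p = 0.00243). A lack of overlap between the gates was a condition of this ranking, so it adds nothing here. Art2a-ps, a pseudogene of the ADP-ribosyltransferase family whose reads its relatives may share, had the highest log2 difference of the ranked genes, 6.30 ± 0.93 (SE), with 153, 109.6 and 89.6 against 0, 2.14 and 0. Clnk, an adaptor of immune receptor signals, rose 13.8-fold, Tent5a, a poly(A) polymerase, 17.7-fold and Raph1, an organiser of actin at the cell edge, 16.7-fold. Slc15a3, Spock2, Tns4 and Man1c1 completed the group, at log2 differences of 4.39, 3.97, 3.84 and 3.78. Spock2 lost its call without replicate 1 of BCL11b+ID2- or replicate 1 or 2 of BCL11blowID2low (0.22, 0.114 and 0.0705), and Man1c1 without replicate 4 of BCL11b+ID2- (0.076).

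Most of the ranked genes that fell had few reads in BCL11blowID2low. Iqch had no reads in any low library and 234, 84.6 and 67.3 normalised counts in BCL11b+ID2-, at least 108-fold lower against a floor of 3 reads over the gate. Syt13, a synaptotagmin, had 0, 1.12 and 2.42 against 411, 185 and 107, and Gfra1, a receptor for glial-derived neurotrophic factor, 0, 0 and 10.5 against 297, 331 and 112. Both fell, 199-fold (log2 difference -6.71 ± 1.02 SE, adjusted p = 0.000251) and 70.5-fold (log2 difference -6.63 ± 1.01 SE, adjusted p = 0.000251). They stood differently elsewhere, since Gfra1 was read at 148 ± 103 in DN2 and Syt13 had no reads there. Ppm1l, a protein phosphatase, had 6.64, 19.0 and 9.69 against 465, 414 and 248 and fell 31.9-fold (log2 difference -4.95 ± 0.59 SE, adjusted p = 1.8e-05). Wfs1, a protein of the endoplasmic reticulum, fell 18.6-fold, and Adcy6, an adenylate cyclase, 13.2-fold. Arfgef3, Ralgps1, Zbtb8b, Dnajc6, Tmem151b, Afap1 and Bahcc1 were the others besides Etv5 and Trdv5, at log2 differences from -6.05 to -4.86. Tmem151b and Adcy6 lost their calls without replicate 2 of BCL11blowID2low (0.0554 and 0.0553).

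**Figure D5:**
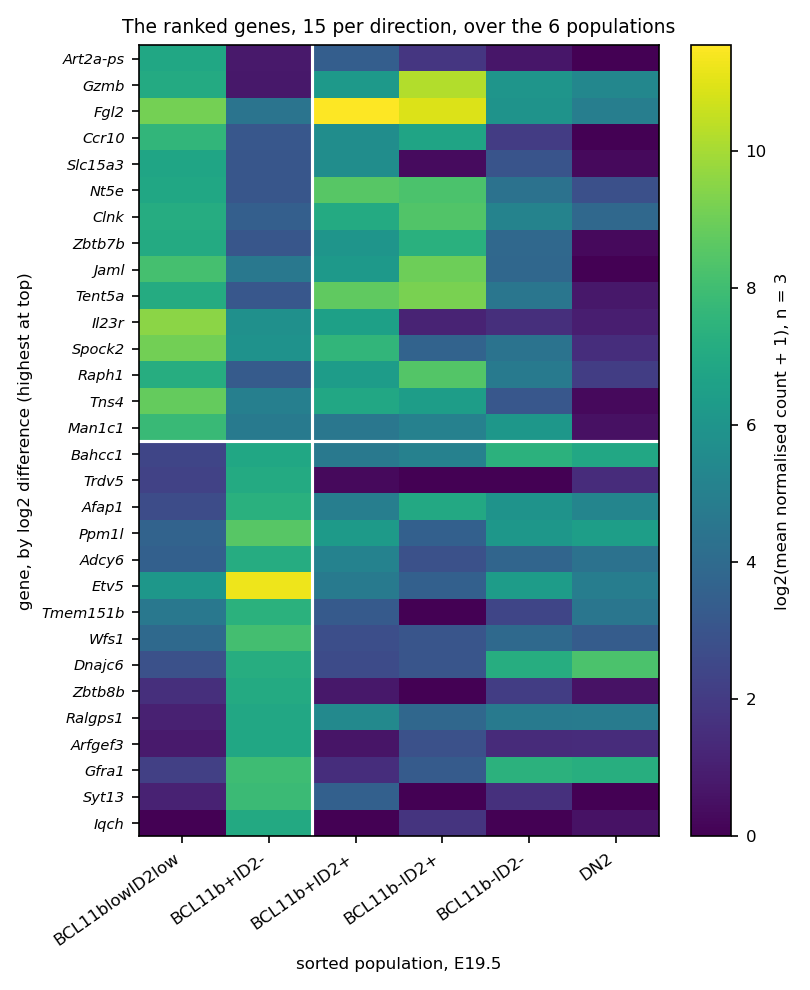
Colour gives log2 of the mean normalised count plus 1 (n = 3) for the ranked genes, 15 higher in BCL11blowID2low above the horizontal white line and 15 lower below it, in the 6 populations of E19.5, the 2 gates compared at the left. Etv5 and Trdv5 reach their highest level in the BCL11b+ID2- column, while Fgl2, Nt5e and Tent5a are higher still in BCL11b+ID2+ and BCL11b-ID2+ than in BCL11blowID2low.

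Set against the other 4 populations in the same fit, the 2 gates stood apart from each of them, and these comparisons share libraries with one another. BCL11blowID2low differed from BCL11b+ID2+ in 4.43% of the 13840 genes, from BCL11b-ID2+ in 8.57%, from BCL11b-ID2- in 14.0% and from DN2 in 14.8%, and BCL11b+ID2- in 8.73, 12.9, 14.9 and 16.2% in that order. The 2 gates differed from each other in 6.91%, so BCL11blowID2low had fewer calls against BCL11b+ID2+ than against BCL11b+ID2-. A share of genes called is not a distance, and no alternatives were fitted for the comparisons with other populations. Against BCL11b+ID2+, the log2 difference of Trdc was 2.89 (adjusted p = 5.92e-07) for BCL11blowID2low and 3.15 (adjusted p = 3.77e-08) for BCL11b+ID2-. Sox13 stood 4.23 (adjusted p = 0.000532) and 5.97 (adjusted p = 3.47e-06) above it, and Blk 3.69 (adjusted p = 0.000505) and 3.75 (adjusted p = 0.000182). These 3 gamma-delta genes were thus higher in both gates than in BCL11b+ID2+. Etv5, Tcrg-V6 and Cxcr6 each passed the threshold in 1 of the 2 comparisons. Etv5 gave 2.62 (adjusted p = 0.144) for BCL11blowID2low and 7.72 (adjusted p = 9.9e-06) for BCL11b+ID2-, and Tcrg-V6 gave 4.09 (adjusted p = 0.0031) and 1.42 (adjusted p = 0.34). Cxcr6 gave -0.34 (adjusted p = 0.748) and -3.09 (adjusted p = 2.11e-05), and Il23r 2.98 (adjusted p = 0.0543) and -1.11 (adjusted p = 0.538), so that Il23r separated neither.

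Further genes, chosen after their values were seen, moved by similar amounts. S100a4, S100a6, Anxa2, Ahnak and Capg, calcium-binding and actin-linked genes of effector cells, all rose. Ahnak stood at 3719.8, 3898 and 3376 against 220.4, 883 and 322 and rose 7.72-fold (log2 difference 3.20 ± 0.46 SE, adjusted p = 0.000197), and the others rose 7.29-fold, 7.26-fold, 6.59-fold and 7.81-fold in the order named (adjusted p = 0.00187, 0.000437, 2.59e-05 and 2.56e-05). Nr1d1, a nuclear receptor of the circadian clock, stood at 325, 259 and 230.0 against 31.2, 58.9 and 37.8 and rose 6.37-fold (log2 difference 2.68 ± 0.57 SE, adjusted p = 0.00494). In the other direction, St8sia1, a ganglioside synthase, stood at 101, 62.6 and 73.4 against 748, 1193 and 1257 and fell 13.5-fold (log2 difference -3.73 ± 0.49 SE, adjusted p = 4.76e-05). Igf1r, the receptor of insulin-like growth factor 1, stood at 61.4, 79.4 and 44.4 against 682, 679 and 539.6 and fell 10.3-fold, and Lig4, the ligase that closes rearranged receptor gene breaks, fell 10.9-fold (adjusted p = 1.15e-05 and 0.000398).

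Several defining markers of other cell types were unread. Flt3, Siglech and Clec9a of dendritic cells had no reads in either gate, nor had Pax5 of B cells. No gene was called in limma among 7 dendritic, 7 B-lineage and 6 thymic epithelial markers, with 1, 0 and 2 at an unadjusted p under 0.05, and edgeR called none while DESeq2 called 1 epithelial marker. Of all tested genes, limma called 6.91%. Ighm, the immunoglobulin mu gene, held most of the B-lineage sum of 1379 to 1736 in BCL11blowID2low and 1255 to 2206 in BCL11b+ID2-, at 1630.0, 1310.5 and 1139 against 2143, 1812 and 1164. Hbb-bs, a beta globin gene, overlapped between the gates at 0, 49.2 and 44.4 against 0, 107 and 48.9. Cpa3, a protease of mast cells and of early progenitors, was the exception among 11 erythroid, megakaryocyte and mast cell markers tested, at 73.0, 23.5 and 14.5 against 1008, 812 and 608, and fell 21.9-fold (log2 difference -4.71 ± 0.47 SE, adjusted p = 3.08e-06). The mast cell genes Fcer1a and Ms4a2 had no reads in these 6 libraries, and DN2 held 817 ± 108 of Cpa3. Pecam1, the one called gene among the stromal and endothelial markers, fell 4.90-fold from 503 ± 186 to 103 ± 56.6 (adjusted p = 0.00295), while the endothelial genes Cdh5 and Kdr had no reads.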

How the data were processed

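The submitters' processing notes name Trim Galore 0.50, STAR 2.6.0a, DESeq2 1.18.1 and the GRCm38 build, with no role or order. The counting tool, its annotation and its use of strand are not given in the sources used here, so reads of a gene and an overlapping or antisense partner cannot be told apart. The deposited signal values are normalised read counts per gene and sample, and all 26244 genes of the table were read. Each library's values were whole multiples of 1 step (100% whole within 0.01 reads), which gave back the reads. The 13840 genes with a value of 10 or more in at least 3 of the 18 E19.5 libraries were tested with limma 3.58.1 in R 4.3.3 on log2(value + 1), with a trend, robust variances and Benjamini-Hochberg adjustment over all of them, 1 coefficient per population and no covariate. Positive differences mean higher in BCL11blowID2low, SE is limma's, and fitted differences understate the change of low genes. Folds are ratios of mean normalised counts, bounded at 3 reads over the gate where a gate had none, with a 95% Poisson interval at 1 to 3 reads. Intervals cover counting error only. The text names the 15 called genes per direction with the largest difference, a mean of 100 or more in 1 gate and no overlap, leaving out predicted, ribosomal and mitochondrial genes. It also names called members of each list and up to 4 further members by mean level. Trdv2-2, Tcrg-V1, Tcrg-V5, Blk, Il17a, Il17f, Ptcra, Trav13-4-dv7, Trav15-2-dv6-2, Xist, Kdm5d and members given as at or near 0 fall outside this rule and were chosen after their values were seen. Members and lists were chosen with earlier results of these data known. Alternatives were other pseudocounts, filters and scalings, library weights, a replicate block, fewer libraries, and edgeR 4.0.16 and DESeq2 1.42.0 on recovered reads. Some members of the lists are counted but not reported here by name.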

Additional observations from a re-analysis of the deposited data

How the results depend on the processing

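The 957 calls (424 higher, 533 lower) became 298 (117 and 181) with only the 6 libraries fitted and 546 (232 and 314) with library weights. edgeR called 736, 385 higher and 351 lower, so the excess of lower calls turned round, as it did without replicate 2 of BCL11b+ID2- (430 and 398), and DESeq2 called 1261 (599 and 662). Leaving out 1 library gave 494 to 897 calls, 223 to 430 higher and 271 to 545 lower, the fewest without replicate 1 of BCL11b+ID2-. Without replicate 1 of both gates, chosen after seeing the data, there were 491 (215 and 276). Of 115 named genes that were called, 58 kept their call in each of the 17 alternatives that gave them an adjusted p. DESeq2 gave some of the 115 no adjusted p, with 107 kept and 6 lost. With some single library left out 37 lost their call, and 0 reversed in any alternative. The fit of 6 libraries ended 38 of the 115 calls (adjusted p 0.0505 to 0.403), library weights 25 and edgeR 9. Among the 38 were Id2, Kit, Ubash3a, Ccr6, Il2ra, Notch2, Hes1, Bhlhe40, Ikzf1, Cysltr1, Tyrobp, Cxcr3, Cxcr4, S1pr1, Ly6a, Gpr183, Ifngr1, Tgfbr1, Nt5e, B2m and the glycolysis genes Pfkp, Aldoa, Eno1 and Ldha. The called risers of the type 17 list ranged from 5 to 11 over the alternatives and those of glycolysis from 0 to 6. The medians of the receptor-signal, ILC2, Notch, cytokine receptor, GIMAP, early response and thymic epithelial lists changed sign between alternatives. The main fit held no term for the replicate number. Same-numbered libraries deviated together only weakly (r = 0.085, 0.035 and 0.08 across genes, which are not independent replicates), although each BCL11blowID2low library correlated best with its own number. Replicate 4 had the highest mitochondrial share of reads in each of the 6 populations (46.55% in BCL11blowID2low and 54.91% in BCL11b+ID2-). Xist ranked replicates 1, 4 and 2 in that order in both gates. What same-numbered libraries share is not stated in the labels and was not tested. A replicate block gave 1236 calls (572 higher, 664 lower). Depth limits segments and scarce genes most, since a gate at 0 reads leaves up to 3 reads possible.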
